A study of Mus musculus with 8 samples.

Results

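The genes described here are 10 genes of the calcineurin and NFAT pathway in mouse quadriceps muscle. They are the inhibitors Rcan1, Rcan2 and Rcan3, the calcineurin subunits Ppp3ca, Ppp3cb and Ppp3r1, and the transcription factors Nfatc1, Nfatc2, Nfatc3 and Nfatc4. Each was matched by its gene name among the 47643 genes of the table. The set was selected on earlier genotype differences of these same libraries, above all the lower TPM of Rcan1, so the genotype differences of the 10 genes are given as a description. Counts of them past a threshold are printed only beside the share of all genes.

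RNA from quadriceps was sequenced in 4 mice labelled Nup210-/- and 4 mice labelled Nup210+/+, all C57BL/6, with 1 library per mouse. Nup210 is a transmembrane protein of the nuclear pore. In the Nup210-/- line exon 2 of the gene, flanked by loxP sites, was cut out throughout the body by a Cre recombinase placed at Hprt. The paper reports loss of the protein in muscle of this line by immunoprecipitation and immunofluorescence. No other allele or agent was given for these animals. Per the methods, the mice of the study were backcrossed to C57BL/6J. Age and sex of the animals were not given in the sources used here. Values are TPM, a measure of transcript abundance relative to transcript length and to the total of each library, so sequencing depth is unknown. Nup210 itself was at 10.3 ± 1.38 TPM (SD, n = 4) in the libraries labelled Nup210-/- and at 7.93 ± 2.06 TPM (SD, n = 4) in those labelled Nup210+/+. These values are for the gene as a whole and do not show exon 2 alone, so the mRNA level does not check the labels.

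Calcineurin is a phosphatase that is switched on by calcium and calmodulin. It consists of a catalytic A subunit and a regulatory B subunit, and it removes phosphates from NFAT factors in the cytoplasm, which then enter the nucleus and act on their target genes. Rcan proteins bind and inhibit calcineurin, and the short Rcan1 transcript is a known NFAT target, so that it reads out and restrains the pathway at once. In skeletal muscle the pathway is known for its part in the slow fiber program, in growth and in regeneration.

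Rcan1 (ENSMUSG00000022951) is at chr16:92391953-92470867 of GRCm38, read from the minus strand. The table built its Rcan1 value from 2 transcripts with 4 exons each. The longer, ENSMUST00000060005, starts at the outer start site, and the shorter, ENSMUST00000023672, starts at an inner site within an intron of the longer one. They share 3 exons and differ in the first, so the gene value does not separate the outer start from the inner one. The 250 bases before each start site (RefSeq, GRCm38.p6) are shown because these 2 windows belong to the member with the largest genotype difference. Capitals mark the NFAT core GGAAA on either strand (TTTCC on the opposite one), the cyclic AMP response element TGACGTCA and the AP-1 site TGANTCA, both of which read the same on either strand. No match overlaps another.
Rcan1 inner start, chr16:92400079-92400328, minus strand: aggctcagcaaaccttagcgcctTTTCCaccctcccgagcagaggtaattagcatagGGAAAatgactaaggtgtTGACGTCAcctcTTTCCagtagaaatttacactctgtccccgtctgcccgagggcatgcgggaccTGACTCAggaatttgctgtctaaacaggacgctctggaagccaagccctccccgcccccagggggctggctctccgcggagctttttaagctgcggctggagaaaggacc
Rcan1 outer start, chr16:92466170-92466419, minus strand: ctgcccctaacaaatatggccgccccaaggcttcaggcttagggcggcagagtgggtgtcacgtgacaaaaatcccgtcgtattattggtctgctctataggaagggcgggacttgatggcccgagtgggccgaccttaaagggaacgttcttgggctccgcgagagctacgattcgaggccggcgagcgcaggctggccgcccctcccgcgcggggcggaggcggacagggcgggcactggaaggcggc

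The inner window held 3 NFAT cores, and 6.39% of 32851 mouse promoter windows of the same length held as many. Of the 13 windows found for 8 of the 10 genes, 4 held 3 NFAT cores, the others being 1 each of Ppp3cb, Nfatc2 and Nfatc4. It also held 1 TGACGTCA, which was found in 1.55% of the windows, and 1 TGANTCA, which was found in 6.75%. The outer window held no match to any of these motifs, and 44.4% of all windows lacked GGAAA. Rcan2 had 3 windows in the table and Rcan3 had 1. One Rcan2 window held 2 NFAT cores, another held 1 TGANTCA and the remaining one held none, while the Rcan3 window held 1 NFAT core. These matches are letters in a window and were not measured as binding sites.

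**Figure D1:**
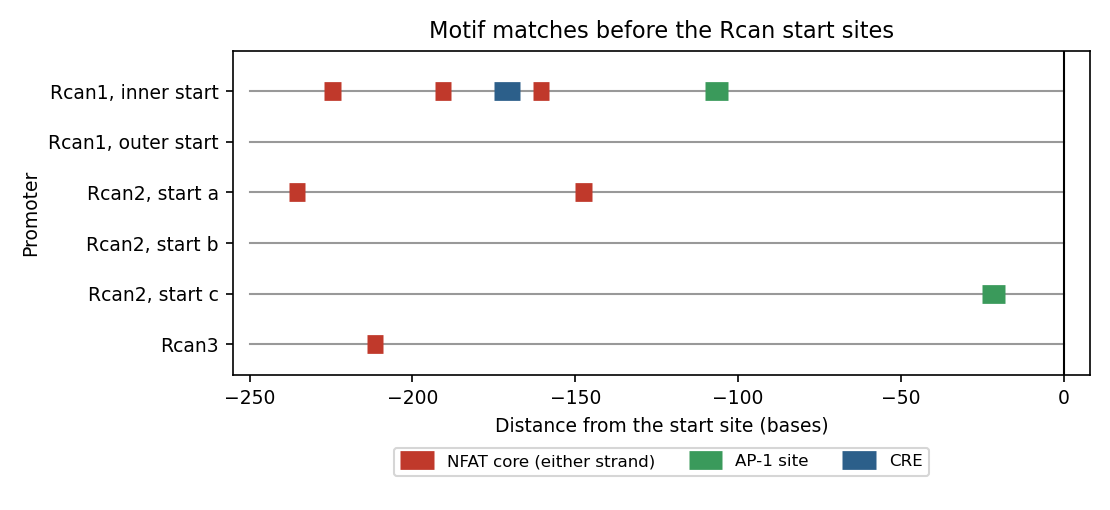
Motif matches in the 250 bases before each Rcan start site, with distance from the start site in bases on the horizontal axis and 1 line per promoter. Boxes mark NFAT cores (red), the cyclic AMP response element (blue) and AP-1 sites (green), and the inner Rcan1 start carries 5 matches whereas the outer one carries 0.

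Among the Rcan inhibitors, Rcan1 was far lower in the libraries labelled Nup210-/-. Its level was 43.87, 45.44, 46.64 and 45.21 TPM in the Nup210-/- libraries, and 144.66, 125.51, 104.11 and 155.72 TPM in the Nup210+/+ libraries. Every Nup210-/- library was below every Nup210+/+ library, and the 4 Nup210-/- values lay within 3 TPM of one another. The ratio of the mean TPM was 0.342, and the log2 fold change was -1.42 with a standard error of 0.148 and a 95% interval of -1.75 to -1.09. All log2 fold changes are Nup210-/- minus Nup210+/+ on log2(scaled TPM + 1) from limma, a scale that understates the change of low genes. Of the 14229 genes tested, 27 had a larger decrease.

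Rcan2, a related inhibitor with a separate gene, was at 17.22, 21.42, 17.82 and 20.36 TPM in Nup210-/- and at 19.89, 15.02, 18.47 and 22.23 TPM in Nup210+/+. The genotypes overlapped over most of their range, and the log2 fold change was 0.12 with an interval of -0.20 to 0.43. Rcan3, the least abundant of the Rcan genes, was at 1.79, 2.87, 1.81 and 1.78 TPM in Nup210-/- and at 1.99, 2.42, 2.24 and 2.24 TPM in Nup210+/+. Replicate 2 of Nup210-/- was the highest of all 8 libraries for Rcan3, the other Nup210-/- libraries were the lowest, and the log2 fold change was -0.02 (interval -0.33 to 0.28). One Rcan3 exon overlaps the microRNA gene Mir700 on the same strand, so its reads could be shared.

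The summed TPM of the 3 inhibitors was 66.6 ± 2.85 (SD, n = 4) in Nup210-/- and 154 ± 24.6 in Nup210+/+. Rcan1 made up 68.1 ± 2.42% of that sum in Nup210-/- and 86.1 ± 1.90% in Nup210+/+. Rcan1 was therefore the main transcript of the 3 Rcan genes in both genotypes. Per summed TPM of the catalytic subunits, the Rcan sum was 0.206 ± 0.0128 in Nup210-/- and 0.496 ± 0.0777 in Nup210+/+.

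**Figure D2:**
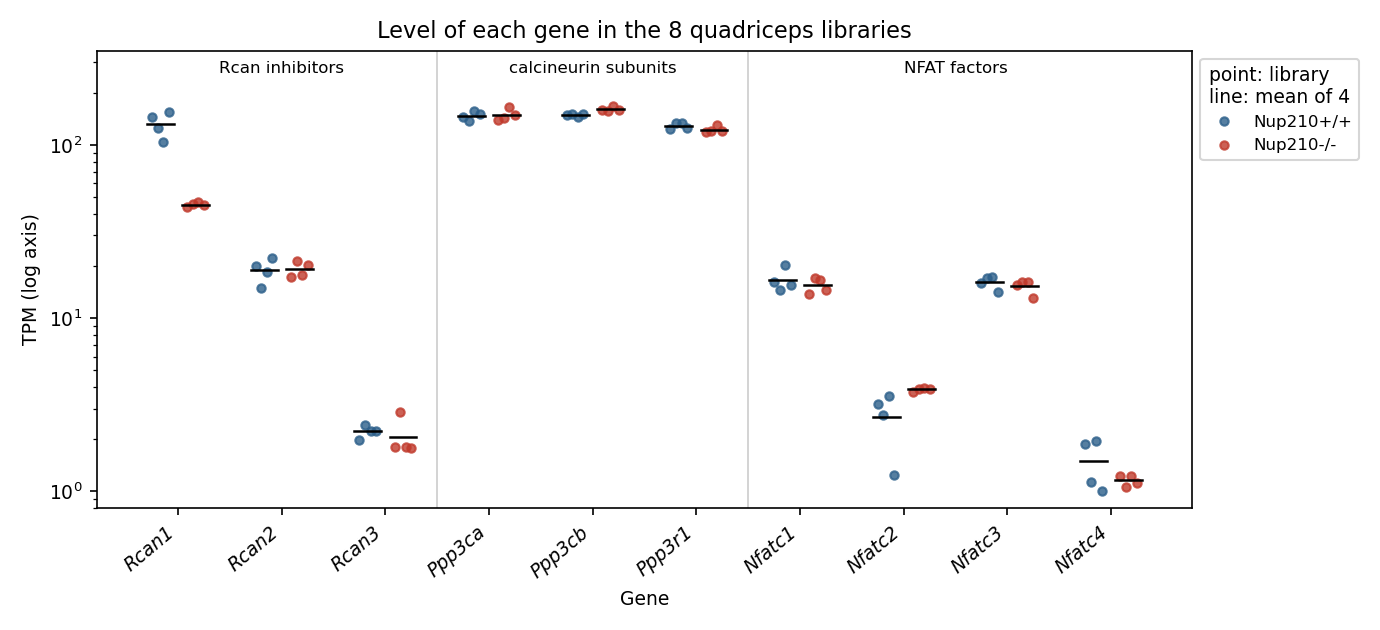
TPM on a log axis for the 10 genes in each of 8 libraries, grouped by role, with blue points for Nup210+/+, red points for Nup210-/- and a line at the mean of 4. The 4 red points of Rcan1 lie between 43.87 and 46.64 TPM, under all 4 blue points, while those of Rcan2 and Rcan3 overlap the blue ones.

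The calcineurin subunits were abundant and differed little by genotype. Ppp3ca, the catalytic alpha isoform, was at 138.63, 142.70, 165.13 and 149.45 TPM in Nup210-/- and at 145.27, 137.20, 156.08 and 150.14 TPM in Nup210+/+. The ranges overlapped, and the log2 fold change was 0.11 (interval -0.05 to 0.27). Ppp3cb, the catalytic beta isoform, was at 158.79, 158.09, 167.77 and 158.92 TPM in Nup210-/- and at 149.57, 150.81, 144.53 and 151.89 TPM in Nup210+/+. All Nup210-/- libraries were above all Nup210+/+ libraries for Ppp3cb, but the ratio of the means was only 1.08. Its log2 fold change was 0.20 (interval 0.05 to 0.36, not called, adjusted p 0.237 in limma), and 0.11 on TPM as deposited, without the scaling between libraries.

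Ppp3r1 encodes the regulatory B subunit and was at 118.69, 120.63, 131.13 and 120.44 TPM in Nup210-/- and at 123.03, 134.02, 134.45 and 125.88 TPM in Nup210+/+. The genotypes overlapped, and the log2 fold change was 0.02 (interval -0.10 to 0.14), turning to -0.08 on TPM as deposited. Ppp3r1 shares exon sequence with Wdr92 on the same strand, so reads could be split between them. The third catalytic gene, Ppp3cc, which is not one of the 10, gave 4.24 ± 0.179% of the catalytic TPM in Nup210-/- and 4.25 ± 0.232% in Nup210+/+. Ppp3ca gave 46.0 ± 1.3% and 47.5 ± 1.72%, and Ppp3cb gave 49.8 ± 1.18% and 48.2 ± 1.67%, in that order of genotypes. The mixture of catalytic isoforms thus differed by less than 2 percentage points between the genotype means. Ppp3r2, the other B subunit gene, was listed at 0 in all libraries.

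Among the NFAT factors, only Nfatc2 did not overlap between genotypes, as 8.41% of all tested genes did not. Nfatc2 was at 3.74, 3.88, 3.97 and 3.90 TPM in Nup210-/- and at 3.21, 2.75, 3.57 and 1.24 TPM in Nup210+/+. All 4 Nup210-/- libraries were above all Nup210+/+ libraries, the lowest of which was replicate 4. The log2 fold change was 0.53 (interval 0.11 to 0.94, not called, adjusted p 0.249 in limma), and 0.33 without Nup210+/+ replicate 4.

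Nfatc1, which carries the calcineurin signal to slow fiber genes in muscle, was at 13.70, 16.94, 16.58 and 14.57 TPM in Nup210-/- and at 16.27, 14.61, 20.13 and 15.56 TPM in Nup210+/+. Nfatc3 was at 15.44, 16.21, 16.25 and 13.11 TPM in Nup210-/- and at 16.03, 16.95, 17.29 and 14.13 TPM in Nup210+/+. Both overlapped between genotypes, with log2 fold changes of -0.01 (interval -0.20 to 0.19) and 0.02 (interval -0.15 to 0.18), and the sign of each depended on the scaling between libraries. Nfatc3 has an exon that overlaps Esrp2 on the opposite strand. Nfatc4, the least abundant of the 10, was at 1.23, 1.06, 1.23 and 1.11 TPM in Nup210-/- and at 1.87, 1.13, 1.95 and 1.01 TPM in Nup210+/+. Its Nup210+/+ libraries reached both below and above the Nup210-/- range, and its log2 fold change was -0.13 (interval -0.46 to 0.20). Nfatc1 and Nfatc3 together carried most of the NFAT transcript, at 43.2 ± 2.07% and 42.7 ± 2.11% of the summed TPM in Nup210-/- and 45.1 ± 3.35% and 43.8 ± 3.15% in Nup210+/+. Nfatc2 gave 10.9 ± 0.772% in Nup210-/- and 7.14 ± 2.20% in Nup210+/+.

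**Figure D3:**
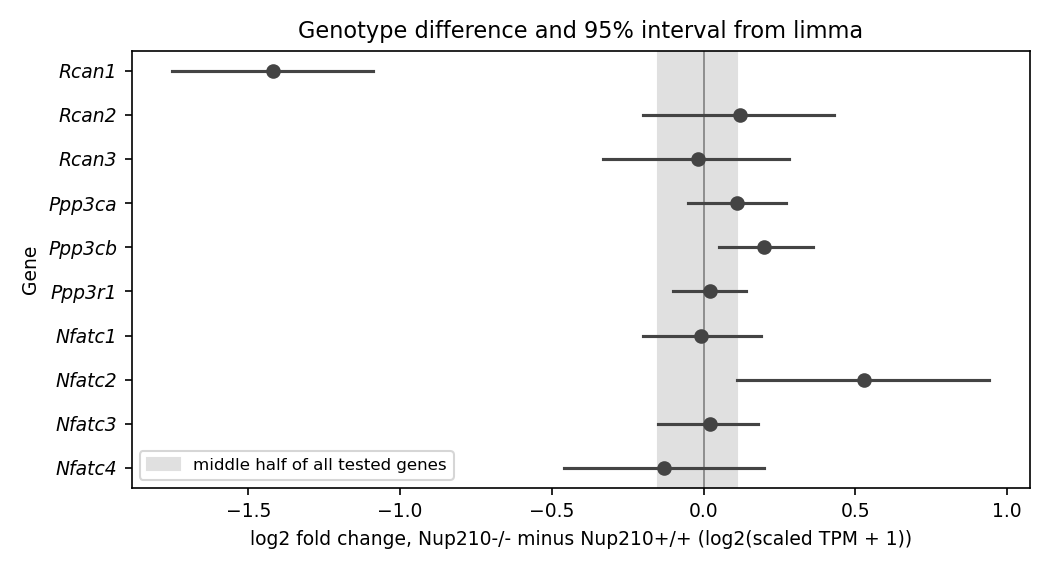
Log2 fold change (Nup210-/- minus Nup210+/+) of the 10 genes on the horizontal axis, with 95% intervals from limma and, in grey, the interquartile range of all 14229 tested genes, from -0.15 to 0.11. Rcan1, on whose difference the set was chosen, lies at -1.42, Nfatc2 at 0.53 and the other 8 between -0.13 and 0.20.

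All 10 genes passed the filter of a mean TPM of at least 0.5. In limma, 1 of them, Rcan1, was called at an adjusted p of 0.05, where 0.112% of all tested genes were called (16 of 14229), and 3 (Rcan1, Ppp3cb and Nfatc2) did not overlap between genotypes, where 8.41% of all tested genes did not. Because the set was selected on this contrast, nothing is read from these counts. The median log2 fold change was 0.02 over the 10 genes and -0.01 over all tested genes, with 6 of 10 estimates above 0. The log2 fold change of Rcan1 lay between -1.57 and -1.3 over all alternative analyses, those that left out a library included. Its adjusted p in limma was 0.049, just under the threshold, and the call held in 9 of 19 alternatives. Of the 8 alternatives that left out a library, 2 kept it.

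The spread between mice also differed among the genes. In Nup210-/- the log2 SD of Rcan1 was 0.0307, at percentile 2.42 of all tested genes, whereas in Nup210+/+ it was 0.345, at percentile 83.4. For Nfatc2 it was 0.0317 in Nup210-/- (percentile 2.57) and 0.405 in Nup210+/+ (percentile 87.8). Single libraries set much of these values. Without Nup210+/+ replicate 4 the log2 SD of Nfatc2 in Nup210+/+ was 0.107, and without Nup210+/+ replicate 3 that of Rcan1 was 0.214. Without Nup210-/- replicate 4 the log2 SD in Nup210-/- was 0.0065 for Rcan1 and 0.00364 for Nfatc2. For 8 of the 10 genes the log2 SD was smaller in Nup210-/-, as it was for 62.8% of all tested genes, and the exceptions were Rcan3 and Nfatc3. The difference in spread was not tested.

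The 10 genes fell into tiers of level. The mean TPM over 8 libraries was 155 for Ppp3cb, 148 for Ppp3ca, 126 for Ppp3r1 and 88.9 for Rcan1. It was 19.1 for Rcan2, 16.0 for Nfatc1 and 15.7 for Nfatc3, and then 3.28 for Nfatc2, 2.14 for Rcan3 and 1.32 for Nfatc4. TPM is per transcript length, so these levels can be compared between genes. Neighbours in the order were compared within each library by a two-sided exact sign-flip permutation test, whose smallest possible p with 8 libraries is 0.00781, adjusted over 9 pairs.

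In all, 4 of 9 pairs passed the test at an adjusted exact p of 0.0176, and in each the higher gene was higher in 8 of 8 libraries. These were Ppp3ca over Ppp3r1 by 0.23 on the log2 scale, Rcan1 over Rcan2 by 1.97 (1.2 in Nup210-/- and 2.74 in Nup210+/+), Nfatc3 over Nfatc2 by 2.0 and Rcan3 over Nfatc4 by 0.44. Other neighbours did not pass, with adjusted exact p between 0.0563 and 0.562, which does not show that their levels are equal. They were Ppp3cb and Ppp3ca, Rcan2 and Nfatc1, Nfatc1 and Nfatc3, and Nfatc2 and Rcan3. Of these, Rcan2 was above Nfatc1 by 0.23 ± 0.21 (SD) and in 7 of 8 libraries (adjusted exact p 0.0563). For Ppp3r1 and Rcan1 the adjusted exact p was 0.0904, and their order differs by genotype, since the mean of Rcan1 was 132 TPM beside 129 TPM for Ppp3r1 in Nup210+/+ and 45.3 beside 123 in Nup210-/-.

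The genes whose pattern over the 8 libraries was most like that of Rcan1 were taken by the root mean squared difference of centred log2 values. The 5 nearest were Banp at 0.306, Xirp1 at 0.318, Hist1h3f at 0.321, Gm24095 at 0.352 and Hsp90aa1 at 0.353, where the median over all other tested genes was 0.760. Xirp1 encodes an actin-binding protein of striated muscle and was at 66.3 ± 3.31 TPM (SD, n = 4) in Nup210-/- and 128 ± 16.4 in Nup210+/+. Hsp90aa1, a stress-inducible chaperone, was at 60.7 ± 5.89 and 131 ± 28.0, and Banp, a nuclear DNA-binding protein, at 4.23 ± 1.02 and 9.40 ± 0.876, in the same order. Hist1h3f is one of many near-identical histone genes and Gm24095 is a gene with no assigned name, and both were listed at 0 in all Nup210-/- libraries, so their likeness rests on values near 0. These genes were picked for a profile that contains the genotype difference, and no test is given for them.

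**Figure D4:**
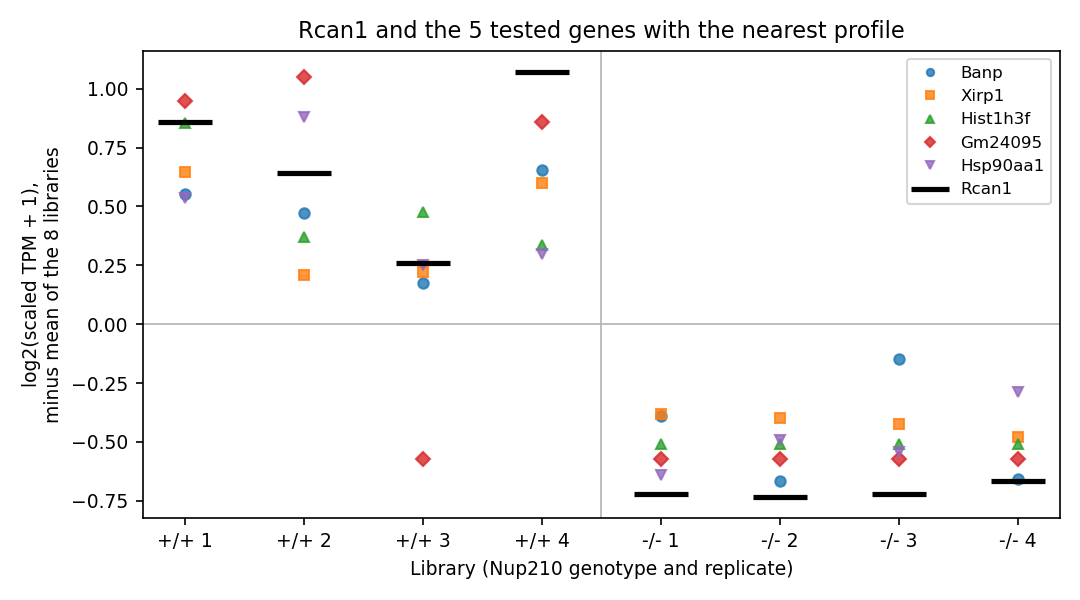
Centred log2(scaled TPM + 1) of Rcan1 (black bars) and of the 5 tested genes nearest to it (symbols) in each library, with Nup210+/+ to the left and Nup210-/- to the right. Rcan1 ranges from 0.262 to 1.071 in the Nup210+/+ libraries and from -0.732 to -0.664 in the Nup210-/- libraries.

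The other genes of the pathway were examined in 7 lists of 78 genes, of which 62 were tested. None was called in limma at an adjusted p of 0.05, in either direction. At an unadjusted p of 0.05, 10 were higher and 4 lower in Nup210-/-, or 22.6% of the 62, where 14.2% of all tested genes passed, and 6.45% did not overlap between genotypes, beside 8.41% of all tested genes. The lowest adjusted p was 0.111, for Mef2d, a muscle transcription factor that calcineurin acts on (log2 fold change 0.27).

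Upstream of calcineurin, in the list of calmodulin and store-operated calcium entry, 0 of 10 tested genes were called and the median log2 fold change was -0.02. The calcium channel gene Orai1 had the largest increase at 0.18 (adjusted p 0.290 in limma). Of the calcineurin binding proteins and inhibitors, 0 of 14 were called and the median was -0.03. Myoz3, a Z-disc protein that binds calcineurin, was at 61.4 ± 4.26 TPM in Nup210-/- and 51.5 ± 3.82 in Nup210+/+ without overlap (log2 fold change 0.34, adjusted p 0.198 in limma). Ppia, whose protein cyclophilin A inhibits calcineurin when bound to cyclosporin, was at 185 ± 6.51 and 298 ± 119 TPM, also without overlap (log2 fold change -0.51, adjusted p 0.312). Its highest library was Nup210+/+ replicate 2 at 465.31 TPM, where the other Nup210+/+ libraries were at 197.49 to 296.33.

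The remaining subunit and NFAT family genes, Ppp3cc and Nfat5, had log2 fold changes of 0.14 and 0.16, and neither was called. Of 12 NFAT kinases, which return phosphate to NFAT and send it out of the nucleus, 0 were called. Scaled estimates were above 0 for 10 of them, but this count depends on the scaling between libraries. On TPM as deposited the ratio of the means was below 1 for Gsk3a (0.981), Dyrk1a (0.973) and Csnk1a1 (0.970), which are among the 10. Dyrk1b had the largest increase of the 12 kinases at 0.34 (adjusted p 0.151 in limma), and Csnk1e the largest decrease at -0.06. Of 12 other calcineurin substrates 0 were called. At an unadjusted p of 0.05 in limma 5 were higher and 0 lower, where 14.2% of all tested genes passed in either direction. Each of these 5 overlapped between genotypes in TPM, and nothing is read from their count. On TPM as deposited the ratios of their means were 1.04 (Mef2a) to 1.18 (Ppp1r1a). The largest increase was for Ppp1r1a, a phosphatase inhibitor, at 0.32 (adjusted p 0.212 in limma). The largest decrease was for the dynamin gene Dnm1 at -0.32 (adjusted p 0.412 in limma).

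Downstream, 0 of 12 slow fiber genes were called, and the median log2 fold change was -0.13. Myh7b had the largest increase at 0.15 and the slow light chain Myl3 the largest decrease at -0.31 (adjusted p 0.576 in limma). Of 11 immune NFAT target genes, such as Il2 and Il4, 0 passed the filter on low values, and no library exceeded 0.82 TPM for any of them. The NFAT targets known from T cells therefore could not be compared at these levels.

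The slow fiber genes varied between mice within each genotype. Their mean deviation from the 8-library mean on the log2 scale, used as a score, was -0.40, 0.29, -0.45 and 0.33 in Nup210-/- and 0.26, -0.38, 0.00 and 0.34 in Nup210+/+. Both genotypes thus held libraries at either end. Of the 10 genes, Rcan2 followed this score most closely, at r = 0.78 (Pearson) and rho = 0.81 (Spearman) over the 8 libraries. By exact permutation test p was 0.0307 for r and 0.0218 for rho, and neither passed after adjustment over the 10 genes (adjusted p 0.307 and 0.218).

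The Rcan2 relation had the same sign within each genotype, with r of 1.00 in Nup210-/- and 0.94 in Nup210+/+ over 4 libraries each. It was 0.88 for deviations from the genotype means, 0.95 without the 2 libraries farthest from the median score and 0.73 without Nup210+/+ replicate 2. Among all tested genes 159, or 1.12%, had an r at least as high, so Rcan2 was 1 of many. All tested genes here include Rcan2 itself and the 12 slow fiber genes that make up the score. Over all 8 libraries Rcan1 did not follow the score (r = 0.27, exact permutation p = 0.517, adjusted p 0.871). Its r was 0.46 within Nup210-/-, 0.55 within Nup210+/+ and -0.27 without the 2 farthest libraries, and these were not tested. Nfatc3 had the largest negative r, -0.64 (exact permutation p = 0.0771, adjusted p 0.386), and -0.33 on TPM as deposited. The relation of Rcan2 was singled out after its values were seen, and both measures come from the same 8 libraries.

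**Figure D5:**
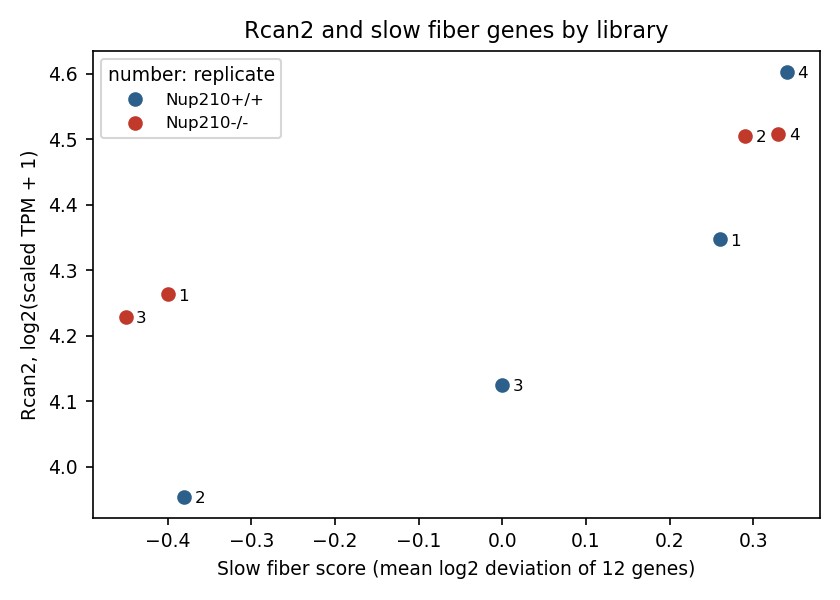
Rcan2 on the vertical axis, as log2(scaled TPM + 1), against the score of 12 slow fiber genes (mean log2 deviation) on the horizontal axis, with 1 point per library, blue for Nup210+/+ and red for Nup210-/-, numbered by replicate. Libraries with a score of 0.26 or more have Rcan2 at 4.347 or more, and the other 4 lie at 4.263 or less.

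No marker gene of any cell type examined was called in limma, but some of the summed marker levels did not overlap between genotypes. The summed TPM of 7 myofiber markers was 88215 to 94260 in Nup210-/- and 81394 to 86799 in Nup210+/+, with 0 of 7 estimates lower in Nup210-/-. The labelled tissue thus showed its defining genes in every library. The 8 macrophage and general leukocyte markers summed to 155 to 179 TPM and 185 to 393, with 8 of 8 estimates lower in Nup210-/-. The 4 fibroblast markers summed to 526 to 635 and 659 to 1048 (4 of 4 lower), and the 4 smooth muscle markers to 30.9 to 35.4 and 38.2 to 48.5 (3 of 3 tested lower). The myofiber sum, higher in Nup210-/-, and the other sums above, lower there, did not overlap between genotypes, as Rcan1 did not. The part of these cells in the Rcan1 difference was not tested. In bulk tissue, fewer cells of a type and less RNA per cell cannot be told apart.

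The endothelial sum was 74.2 to 85.7 TPM in Nup210-/- and 80.3 to 96.3 in Nup210+/+, the satellite cell sum 14.1 to 17.9 and 15.8 to 21.3, and the Schwann cell sum 37.8 to 48.9 and 44.7 to 59.8, all of which overlapped. T cell markers summed to 0.79 to 1.31 TPM and 2.15 to 3.83, which did not overlap, with 6 of 8 listed at 0 in at least 1 library. The 6 granulocyte precursor markers, Elane, Mpo, Prtn3, Ctsg, Ms4a3 and Cebpe, were each listed at 0 in at least 1 library, but summed to 382 TPM in Nup210+/+ replicate 2, where the other 7 libraries had at most 2.12. Without that library the log2 fold change was -1.44 for Rcan1, 0.21 for Ppp3cb, 0.55 for Nfatc2 and 0.02 for Rcan2, and the mean of Rcan1 in Nup210+/+ was 135 ± 27.2 TPM (SD, n = 3).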

How the data were processed

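Quadriceps RNA of 8 mice was measured, 4 per genotype as given in the labels. Directional libraries were made from polyadenylated RNA and sequenced from 1 end. Per the submitters' processing notes and the methods, reads were trimmed with cutadapt 2.3, aligned to mm10 with STAR 2.7.0d and quantified with RSEM 1.3.1 on Ensembl annotations 84. The authors deposited TPM per gene and library, without pooling, and each library sums to 1000000 within rounding. Between 18185 and 19357 genes were above 0 in a library, and depth could not be recovered, so no interval for a single library is given.

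TPM were scaled by the median of ratios, and genes averaging 0.5 TPM or more entered the test on log2(scaled TPM + 1) with limma 3.58.1 in R 4.3.3 (intensity trend, genotype as the only term), with Benjamini-Hochberg adjustment over all genes tested. The p-values measure the spread between these 8 mice. The analysis was tested on simulated data. Levels of neighbouring genes were compared with exact sign-flip tests over 256 sign patterns, and correlations with exact permutation tests over 40320 orders, in Python 3.11.15 with scipy 1.17.1.

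The genes, lists, tests and alternatives were chosen with earlier results of these data known. The rule for named genes took the 10 genes, Nup210, the largest increase and decrease in each pathway list, any pathway gene called, and the 5 profiles nearest to Rcan1. One result that this rule would name is not reported here. Mef2d was named for the lowest adjusted p. Promoter windows came from RefSeq (GRCm38.p6), where 8 of the 10 genes had 13 windows, and gene coordinates and overlaps from GENCODE annotation of GRCm38. Alternatives were other pseudocounts, filters, scalings, variance settings, a replicate block and each library left out. Leaving out libraries for the spread of Rcan1 and Nfatc2 was added after seeing the data.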

Additional observations from a re-analysis of the deposited data

Results flagged for a closer look

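In 4 of the 40 groups of 4 libraries examined (22 of single genes and 18 of marker sums), 1 library lay far from the other 3 of its genotype, by a gap to the nearest library over the range of the group above the 95% critical value of Dixon. About 1 in 20 groups, or 2 of 40, would be found by chance. Rcan3 was at 2.87 TPM in Nup210-/- replicate 2, where the nearest library was at 1.81. In Nup210-/- replicate 3, Ppp3cb was at 167.77 TPM, where the nearest library was at 158.92, and Ppp3r1 was at 131.13 TPM, where the nearest was at 120.63. The summed TPM of the 6 granulocyte precursor markers was 382 in Nup210+/+ replicate 2, where the nearest library was at 2.12.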

How the results depend on the processing

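In place of 16 called genes, 1 of them among the 10 described, 1 gene and 0 of the 10 were called with no filter on low values, 0 and 0 with upper-quartile scaling, and 0 and 0 with limma's variance prior fitted without a trend. A mean TPM of at least 1 gave 27 called genes and library weights gave 84, both with Rcan1 among them. Leaving out 1 library at a time gave 0 to 10 called genes and 0 to 1 of the 10, with Rcan1 called in 2 of 8 runs. The causes were not tested. With upper-quartile scaling 2071 genes still passed an unadjusted p of 0.05. Deviations of same-numbered libraries correlated between -0.033 and 0.086, and those of differently numbered libraries between -0.081 and 0.103. These ranges overlap, so the check cannot decide whether the replicate numbers pair the samples. With the replicate number as a block (replicate block), 0 genes and 0 of the 10 were called, 1850 genes passed an unadjusted p of 0.05 and the log2 fold change of Rcan1 was -1.42. Pathway genes called were 0 under every alternative run, and neighbours that differed in level were 4 to 6 of 9.

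Of 190 recomputed log2 fold changes of the 10 genes, 3 moved by more than 1 SD between mice, all on TPM as deposited, namely Ppp3cb (0.11), Ppp3r1 (-0.08) and Nfatc3 (-0.07). The sign of Rcan3, Ppp3r1, Nfatc1 and Nfatc3, all near 0, differed in 6, 2, 3 and 4 of 19 alternatives. Over these alternatives and the libraries left out, Rcan1 ranged from -1.57 to -1.3, Nfatc2 from 0.33 to 0.70 and Ppp3cb from 0.11 to 0.25. TPM carry no depth, so the counting error of the low genes Nfatc2, Rcan3 and Nfatc4 is unknown.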
